A study of Mus musculus with 16 samples.

Results

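The genes described here handle iron and zinc in the liver: the hepcidin genes Hamp and Hamp2, the transferrin receptors Tfrc and Tfr2, the iron exporter Slc40a1, the ferritin chains Fth1 and Ftl1, the BMP target Id1, and the metallothioneins Mt1 and Mt2. They were chosen by symbol from the table of expected counts, and all 10 of 10 were among the 18335 genes that passed the filter on low counts, of 50559 symbols in the table. The libraries came from livers of 16 male C57BL/6J mice, 4 in each of 4 groups, which were 6 weeks old when a 10-week diet began and were treated in the last 4 weeks. LFD mice, called chow in the sample labels, and HFD mice, fed a high-fat diet with 60% fat, were injected with 10 mg/kg of luciferase control siRNA every 2 weeks and gavaged with methylcellulose. HFD + siRNA mice were on the high-fat diet, were injected with 20 mg/kg of an siRNA against ketohexokinase (KHK) on the same schedule, and were gavaged with methylcellulose. HFD + Inhib mice were on the high-fat diet, were injected with 10 mg/kg of control siRNA, and were gavaged with 15 mg/kg of the KHK inhibitor PF-06835919, 2 doses a day. The siRNA was directed to hepatocytes by its sugar tag, while the inhibitor reached the whole body, so the treatments differ in the tissues they act on. By the study's methods, mice received saline or insulin through the vena cava shortly before the liver was taken, and the sample labels do not say which mouse received which. Total expected counts ran from 24317111 to 35820234 per library, with a median of 29570114.

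Hepcidin is a peptide hormone that hepatocytes release into blood. It binds ferroportin, the iron exporter encoded by Slc40a1, and removes it from the cell surface, so that iron stays inside macrophages, enterocytes and hepatocytes. Bone morphogenetic proteins (BMPs) acting through SMAD factors raise Hamp when iron is plentiful, and interleukin 6 acting through STAT3 raises it in inflammation. The mRNAs of ferritin, ferroportin and transferrin receptor 1 carry hairpins that iron regulatory proteins bind when iron is scarce, which blocks translation or stabilizes the mRNA. Metallothioneins are small cysteine-rich proteins that hold zinc and copper, and their genes answer to zinc through the factor MTF1 and to glucocorticoids.

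KHK, the target of both treatments, was checked first. Its mean level was 266 ± 59.9 CPM (SD, n = 4) in LFD, 264 ± 39.8 in HFD, 12.7 ± 3.85 in the HFD + siRNA livers and 119.7 ± 24.1 with the inhibitor, where CPM are counts scaled to the size of each library. Compared with HFD, Khk mRNA fell by 4.38 on the log2 scale in HFD + siRNA (SE 0.23, adjusted p = 1.88e-08, edgeR's quasi-likelihood test) and fell by 1.14 in HFD + Inhib (SE 0.20, adjusted p = 0.000752). The target's level thus set both treated groups apart. The highest HFD + siRNA library was at 18.1 CPM and the lowest of the other 12 at 94.6 CPM. The highest HFD + Inhib library, at 152 CPM, was below every LFD and HFD library. Khk did not tell HFD from LFD (log2 fold change -0.01, adjusted p = 0.975, same test), so their labels were not checked by it.

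The liver identity of the libraries was plain in the markers. Albumin (Alb) was the most abundant hepatocyte marker in every library, and none of the 8 hepatocyte markers was at 0. The summed level of these markers was 92315 ± 7328 CPM in LFD, 83078 ± 7852 in HFD, 87101 ± 5301 under the siRNA and 59427 ± 1711 under the inhibitor (SD, n = 4 per group). In bulk tissue, fewer cells of a type and less RNA per cell cannot be told apart.

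The number of member genes called differed by comparison (edgeR, Benjamini-Hochberg adjusted p under 0.05 over all genes tested). Between HFD and LFD, 2 of 10 members were called (1 higher, 1 lower), where 18.4% of all tested genes were called. Between HFD + siRNA and HFD, 0 of 10 were called by edgeR, where 11.7% of all genes were, while 4 members had an unadjusted p under 0.05 and DESeq2 called 1. Between HFD + Inhib and HFD, 3 of 10 were called (1 higher, 2 lower) against a background of 18.2%, and between HFD + Inhib and HFD + siRNA, 4 of 10 were called, all lower in HFD + Inhib, against 33.8%. Against LFD, 1 of 10 was called in HFD + siRNA (background 8.63%) and 3 of 10 in HFD + Inhib (background 36.9%). The comparisons that share HFD or LFD libraries are not independent of each other, and with 10 members each called gene moves the share by 10 percentage points.

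**Figure D1:**
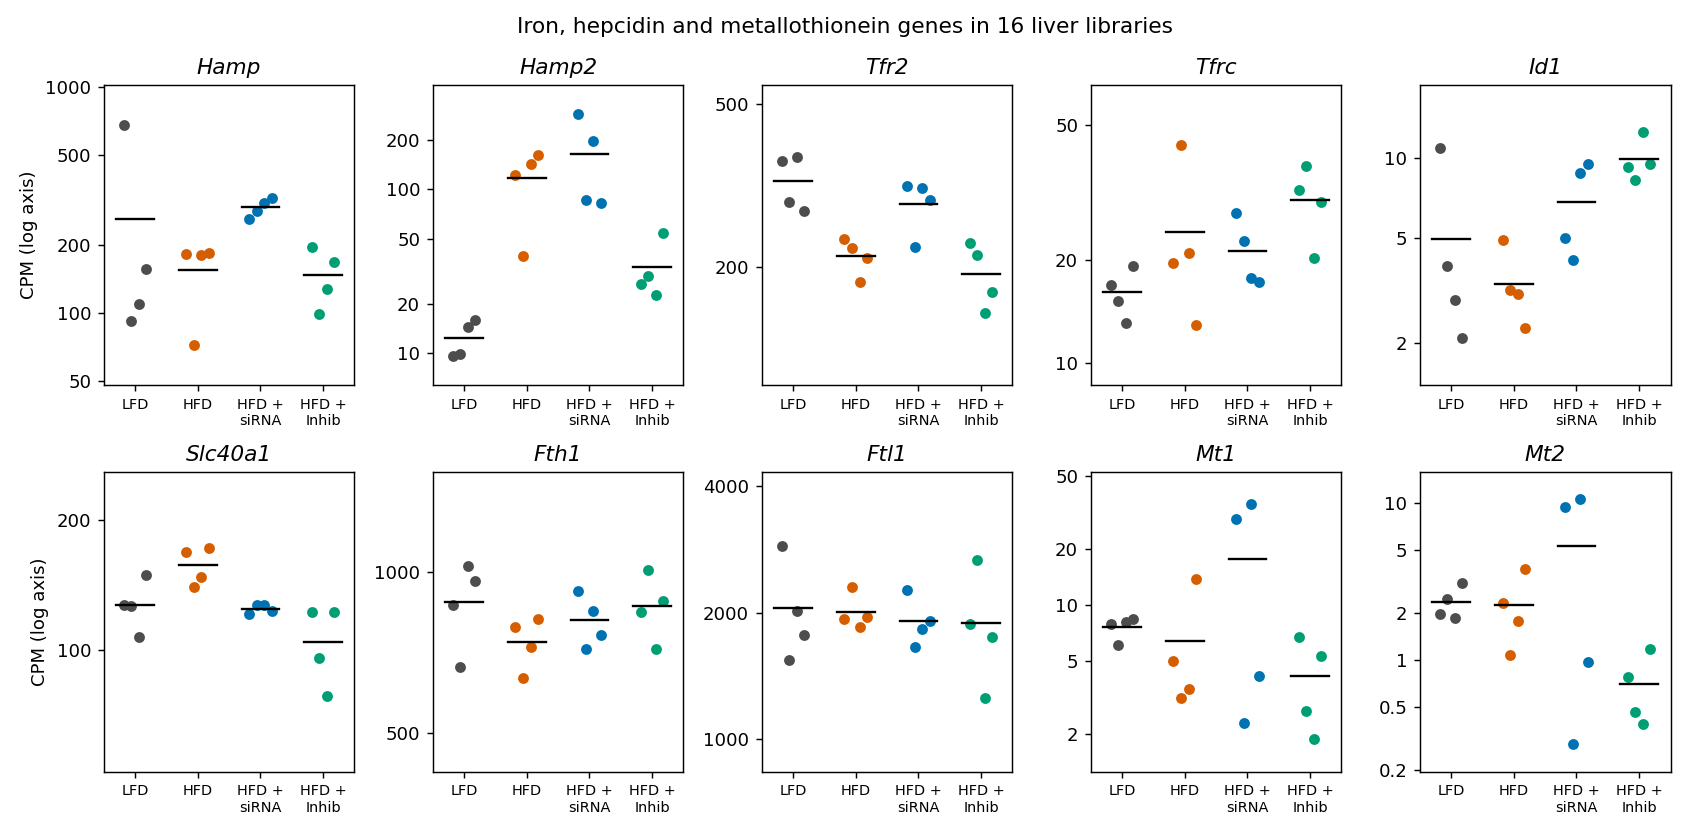
Level of each of the 10 genes in CPM (log axis, separate scale per panel) in the 16 libraries, grouped as LFD, HFD, HFD + siRNA and HFD + Inhib. Points are libraries in replicate order from left to right and bars are group means: Hamp2 runs from 9.52 CPM in LFD to 291 CPM in HFD + siRNA, while Fth1 and Ftl1 lie at like levels in all groups.

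Hamp2, the other hepcidin gene of the mouse, had the largest change among the members. Mice carry this copy of Hamp as a tandem duplicate on the same chromosome, and no role in iron control is established for its product. In LFD the 4 libraries held 9.52, 9.89, 14.4 and 15.8 CPM of Hamp2. In HFD they held 123, 39.3, 143 and 162 CPM. Every HFD library was above every LFD library, and HFD 2 was well below the other HFD libraries. Hamp2 was 9.41-fold higher in HFD than in LFD (log2 fold change 3.23, SE 0.47, adjusted p = 0.000438). In HFD + siRNA the libraries held 291, 86.2, 198 and 82.5 CPM, a range that overlapped that of HFD. The difference of HFD + siRNA from HFD did not pass the test (log2 fold change 0.49, 95% interval from -0.44 to 1.42, adjusted p = 0.497), and with offsets for GC content and transcript length it was -0.03. In HFD + Inhib the libraries held 26.5, 29.7, 22.6 and 54.3 CPM, all above LFD, and only replicate 4 was above the lowest HFD library, HFD 2. Hamp2 fell by 1.81 on the log2 scale in HFD + Inhib compared with HFD (SE 0.44, adjusted p = 0.00879) and by 2.30 compared with HFD + siRNA (SE 0.45, adjusted p = 0.00102). HFD + Inhib still exceeded LFD by 1.42 on the log2 scale (adjusted p = 0.02), a call lost without LFD 1 (adjusted p = 0.0548) or without HFD + Inhib 4 (adjusted p = 0.0799). In HFD + siRNA it was above LFD by 3.73 (SE 0.48, adjusted p = 0.000198).

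Hamp, which encodes the hepcidin that controls iron, did not pass the test in any of the 6 comparisons. The LFD libraries held 679, 92.7, 109.7 and 157 CPM, so LFD 1 stood far above the others. The HFD libraries held 182, 72.2, 181 and 184 CPM, with HFD 2 far below the rest. The HFD + siRNA libraries were close together at 259.6, 283, 307 and 321 CPM, above every HFD and every HFD + Inhib library. The HFD + Inhib libraries held 195, 99.6, 128 and 169 CPM, within the range of LFD. The log2 fold change of HFD + siRNA against HFD was 0.92 (SE 0.49, 95% interval from -0.15 to 1.99, adjusted p = 0.243), and against LFD 0.17 (adjusted p = 0.88). LFD 1 decided the latter value, which was 1.28 without it (adjusted p = 0.0155). It also turned the sign of HFD against LFD, from -0.75 (adjusted p = 0.309) to 0.38 without it (adjusted p = 0.424). Between HFD + Inhib and HFD + siRNA the log2 fold change was -0.98 (SE 0.49, adjusted p = 0.134), and the adjusted p was 0.00293 when the spread was estimated from those groups alone and 0.0435 with the replicate number as a block.

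The mRNAs of Hamp and Hamp2 are so alike that short reads cannot always be placed. Their reference transcripts were identical at 388 of 410 aligned bases (94.6%), and 16.6% of the 50-base words of Hamp also occurred in Hamp2 and in no other gene. Both values were other than whole numbers in 15 of 16 libraries, while the sum of both was whole in 16 of 16 within 0.015 reads, so the counting had divided reads between these genes and no others. The split itself followed the groups. Of the reads of both genes, Hamp2 took 1.38%, 9.64%, 11.6% and 9.14% in the LFD libraries, and 40.3%, 35.2%, 44.2% and 46.8% in the HFD libraries. It took 52.9%, 23.4%, 39.2% and 20.4% in HFD + siRNA, and 11.9%, 22.9%, 15% and 24.3% in HFD + Inhib. The share was highest in HFD (41.7 ± 5.05%, SD, n = 4), was spread over a wide range in HFD + siRNA (34.0 ± 15.1%), and lay between LFD and HFD in HFD + Inhib (18.6 ± 6.03%). By an exact 2-sided permutation test over libraries, HFD differed from LFD, HFD + Inhib from HFD, and both treated groups from LFD, each with p = 0.0286, the smallest that 4 against 4 libraries allow (adjusted p = 0.0429 over 6 comparisons). HFD + siRNA against HFD gave an exact permutation p of 0.371, and HFD + Inhib against HFD + siRNA gave 0.143.

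Added together, the hepcidin genes had the same mean in LFD and HFD only with LFD 1. The sum was 272 ± 279 CPM in LFD and 272 ± 108 CPM in HFD. LFD 1 held 688 CPM, the other LFD libraries held 103, 124 and 173 CPM, and without LFD 1 the LFD mean was 133 ± 35.9 CPM (SD, n = 3). It was 457 ± 85.1 CPM in HFD + siRNA, where the lowest library was at 369 CPM, and 181 ± 48.4 CPM in HFD + Inhib, where the highest was at 223 CPM. The sum fell by 1.34 on the log2 scale in HFD + Inhib compared with HFD + siRNA (SE 0.49, adjusted p = 0.0448, edgeR), and no other comparison of the sum passed. Per kilobase of transcript, mean Hamp2 was 29.5 CPM against 633 CPM for Hamp in LFD, and 278 against 377 CPM in HFD.

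**Figure D2:**
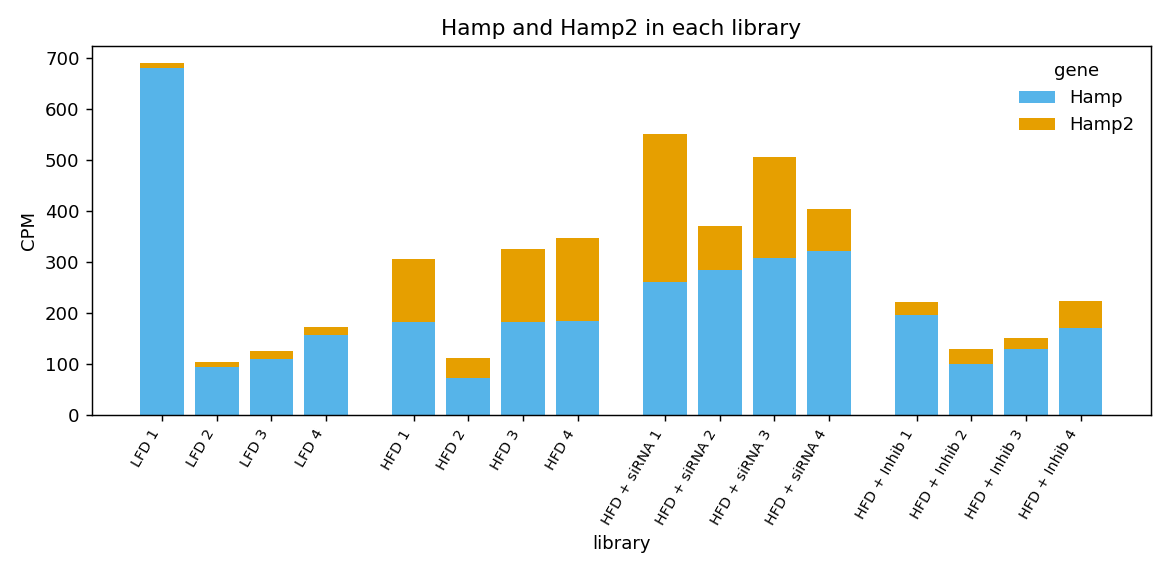
Stacked bars of Hamp (blue) and Hamp2 (orange) in CPM (linear axis from 0) in each of the 16 libraries. Hamp2 is a thin cap in LFD (1.38% to 11.6% of the reads of both), a large part in HFD (35.2% to 46.8%), and smaller again in HFD + Inhib (11.9% to 24.3%).

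The stretches upstream of these genes are shown because the genes moved apart while their sequences are close. RefSeq (GRCm38.p6) places the 250 bases before the start of Hamp at chr7:30944030-30944279 and those before Hamp2 at chr7:30924182-30924431, both on the minus strand. Capitals mark 2 motifs searched on both strands, GGCGCC, the core of BMP response elements, and TTCNNNGAA, the letters that STAT factors bind. These motifs do not overlap.
Hamp: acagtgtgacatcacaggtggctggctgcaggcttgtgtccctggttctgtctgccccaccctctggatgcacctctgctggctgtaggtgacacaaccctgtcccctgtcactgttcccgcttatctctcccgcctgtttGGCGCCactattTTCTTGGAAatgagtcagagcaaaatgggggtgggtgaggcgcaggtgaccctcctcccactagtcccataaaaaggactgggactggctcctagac
Hamp2: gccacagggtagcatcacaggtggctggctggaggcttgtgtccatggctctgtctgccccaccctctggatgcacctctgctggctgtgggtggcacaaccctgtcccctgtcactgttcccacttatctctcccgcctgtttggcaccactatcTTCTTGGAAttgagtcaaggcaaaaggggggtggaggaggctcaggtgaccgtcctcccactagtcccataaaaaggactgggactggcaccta
The windows were identical at 227 of 247 aligned bases (91.9%). The STAT letters stood in both, 97 to 89 bases before the start of Hamp and 94 to 86 bases before that of Hamp2. The BMP letters stood only in Hamp, 109 to 104 bases before its start, where the substitution G145A, counted from 1 at the 5′ end of the Hamp window with the Hamp base first, falls inside them. Of 32851 windows in the RefSeq table, 9.59% held GGCGCC and 7.02% held TTCNNNGAA. A match is a description of letters, not a site in use.

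Tfr2, transferrin receptor 2, senses iron-loaded transferrin on hepatocytes and feeds into the BMP signal to Hamp. It was lower in HFD and in HFD + Inhib than in LFD. HFD + siRNA against LFD was not called (log2 fold change -0.18, adjusted p = 0.512). The LFD libraries held 364, 288, 371 and 274 CPM, and the HFD libraries held 235, 223, 184 and 211 CPM, so the groups did not overlap. Tfr2 fell by 0.60 on the log2 scale in HFD against LFD (SE 0.15, adjusted p = 0.01), which became -0.38 with offsets for GC content and transcript length (still called). The HFD + siRNA libraries held 316, 224, 312 and 292 CPM, with HFD + siRNA 2 at the level of HFD. Against HFD the log2 fold change was 0.42 (95% interval from 0.11 to 0.74, adjusted p = 0.0692), which DESeq2 called at an adjusted p of 0.0416. The HFD + Inhib libraries held 229, 214, 155 and 174 CPM, all below every LFD library. Tfr2 fell by 0.57 in HFD + Inhib compared with HFD + siRNA (SE 0.15, adjusted p = 0.00654) and by 0.75 compared with LFD (SE 0.15, adjusted p = 0.00085). With GC and length offsets these values were -0.30 and -0.41 and were still called. Against HFD it was -0.15 (95% interval from -0.46 to 0.17, adjusted p = 0.535).

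Tfrc, the receptor that brings transferrin-bound iron into cells, held 16.9, 15.2, 13.1 and 19.3 CPM in LFD. In HFD it held 19.7, 43.8, 21.0 and 12.9 CPM, with HFD 2, the library lowest in Hamp among HFD, the highest of all 16. In HFD + siRNA it held 27.5, 22.8, 17.8 and 17.3 CPM, and in HFD + Inhib 32.2, 38.0, 20.3 and 29.7 CPM. Only HFD + Inhib against LFD passed the test among the 6 comparisons of Tfrc, with a log2 fold change of 0.90 (SE 0.29, adjusted p = 0.023) and groups that did not overlap. The call was lost with GC and length offsets (0.49, adjusted p = 0.242), without LFD 3 (adjusted p = 0.0687) and without HFD + Inhib 2 (adjusted p = 0.0677). Against HFD the value for HFD + Inhib was 0.30 (adjusted p = 0.526), and it was 0.75 without HFD 2 (adjusted p = 0.0347).

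Id1, an inhibitor of DNA-binding helix-loop-helix factors that BMP-SMAD signaling switches on beside Hamp, was higher in HFD + Inhib. The HFD libraries held 4.90, 3.16, 3.07 and 2.27 CPM and the HFD + Inhib libraries 9.22, 8.28, 12.6 and 9.47 CPM, with no overlap. The rise was 2.94-fold (log2 fold change 1.56, SE 0.42, adjusted p = 0.0151). LFD libraries held 10.9, 3.91, 2.90 and 2.08 CPM, with LFD 1, the library highest in Hamp, again apart from the rest. The HFD + siRNA libraries held 4.97, 4.11, 8.76 and 9.49 CPM. Their log2 fold change against HFD was 1.03 (95% interval from 0.12 to 1.93, adjusted p = 0.12). Against LFD, HFD + Inhib gave 1.02 (adjusted p = 0.0598), which passed in 6 alternatives and reached 1.75 without LFD 1 (adjusted p = 0.000794). In the comparison in which Id1 rose, Hamp stood at -0.06 (HFD + Inhib against HFD, 95% interval from -1.13 to 1.0, adjusted p = 0.95).

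Slc40a1 encodes ferroportin, the protein that hepcidin acts on. Its LFD libraries held 127, 126, 107 and 149 CPM. The HFD libraries held 168, 139.8, 147 and 172 CPM, the group with the highest mean. HFD against LFD was not called (log2 fold change 0.30, adjusted p = 0.121), and these groups overlapped. The HFD + siRNA libraries lay within a narrow range at 121, 127, 127 and 123 CPM, and the HFD + Inhib libraries held 122, 95.8, 78.4 and 122 CPM. All libraries of both treated groups were below all HFD libraries. Slc40a1 fell by 0.58 on the log2 scale in HFD + Inhib compared with HFD (SE 0.13, adjusted p = 0.00494). In HFD + siRNA the value against HFD was -0.33 (95% interval from -0.62 to -0.05, adjusted p = 0.106), which passed only when the spread was estimated from those groups alone (adjusted p = 0.0235). Between the treated groups the value was -0.25 (adjusted p = 0.148), so their effects were not shown to differ, although with GC and length offsets it was -0.56 (adjusted p = 0.00406). Macrophages of the liver also express Slc40a1: the summed level of 10 Kupffer cell and macrophage markers was 305 ± 28.3 CPM in HFD, 363 ± 45.5 under the siRNA and 243 ± 42.6 under the inhibitor (SD, n = 4). The most abundant was Clec4f, none was at 0, and 2 of 10 were lower in HFD + Inhib than in HFD, where 18.2% of all genes were called. The part of these cells in the Slc40a1 values was not tested.

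Fth1 and Ftl1 encode the heavy and light chains of ferritin, the shell that stores iron. Neither was called in any of the 6 comparisons. Fth1 ran from 634 to 1029 CPM over the 16 libraries, with group means of 881 ± 159 CPM in LFD, 741 ± 81.8 in HFD, 813 ± 91.5 under the siRNA and 863 ± 121 under the inhibitor. Ftl1 ran from 1255 to 2889 CPM, with group means from 1889 ± 585 CPM in HFD + Inhib to 2056 ± 588 CPM in LFD. For HFD + Inhib against HFD the log2 fold change was 0.22 for Fth1 (95% interval from -0.09 to 0.53, adjusted p = 0.311) and -0.09 for Ftl1 (from -0.54 to 0.36, adjusted p = 0.809). For HFD + siRNA against HFD it was 0.13 (from -0.17 to 0.44) and -0.07 (from -0.52 to 0.38). These intervals exclude a change of 1 on the log2 scale in either direction, and smaller changes remain possible. Ftl1 shares 78.9% of its 50-base words with 15 other genes, above all the pseudogene Ftl1-ps1, so its reads could be split. Summed with its pseudogenes, the value for HFD + Inhib against HFD was -0.08 (adjusted p = 0.833).

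The iron responsive elements of these mRNAs are shown because they are the feature that ties Tfrc, Slc40a1, Fth1 and Ftl1 together. The search was for a C, 5 bases of stem, a loop of CAGTGN whose last base is not G, and 5 bases that pair with the stem (CNNNNNCAGTGNNNNNN, sense strand, G-T pairs allowed) in the first listed GENCODE M21 transcript of each gene. Loops are in capitals.
Tfrc element 1: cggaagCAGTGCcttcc
Tfrc element 2: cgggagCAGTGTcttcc
Tfrc element 3: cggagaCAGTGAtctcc
Tfrc element 4: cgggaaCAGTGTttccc
Slc40a1: cagctaCAGTGTtagct
Fth1: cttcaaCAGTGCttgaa
Ftl1: cttcaaCAGTGTttgaa
The 4 elements found in Tfrc stood in its 3′ UTR, and those found in Slc40a1, Fth1 and Ftl1 in their 5′ UTRs. An element with an unpaired stem base or another loop would be missed. None was found in the transcripts of the other 6 members, and 0.427% of 55307 such transcripts held at least 1. Elements in the 5′ UTR are known to act on translation, which mRNA levels do not show.

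Mt1 and Mt2, the metallothioneins of liver, were uneven within the siRNA group. The HFD + siRNA libraries held 29.3, 2.29, 35 and 4.13 CPM of Mt1, so replicates 1 and 3 were the highest of all 16 libraries and replicate 2 was among the lowest. The other groups held 7.88, 6.06, 8.06 and 8.44 CPM in LFD, 4.97, 3.13, 3.53 and 13.8 CPM in HFD, and 6.71, 2.68, 1.88 and 5.28 CPM in HFD + Inhib. LFD was the evenest group, at 7.61 ± 1.06 CPM (SD, n = 4). The difference of HFD + siRNA from HFD did not pass the test (log2 fold change 1.49, 95% interval from 0.01 to 2.97, adjusted p = 0.171). Mt1 fell by 2.09 on the log2 scale in HFD + Inhib compared with HFD + siRNA (SE 0.70, adjusted p = 0.0293), although the groups overlapped. That call was lost in 7 of 16 alternatives. Without HFD + siRNA 3 the value was -1.51 (adjusted p = 0.12) and without HFD + siRNA 1 it was -1.72 (adjusted p = 0.0886). It was also lost without HFD + Inhib 2, 3 or 4, at adjusted p-values of 0.0729, 0.0841 and 0.0504.

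Mt2 followed the same libraries. It held 9.43, 0.291, 10.6 and 0.967 CPM in HFD + siRNA, where 0.291 CPM was 8 reads. In HFD + Inhib it held 0.777, 0.466, 0.389 and 1.17 CPM, in HFD 2.32, 1.08, 1.78 and 3.79 CPM, and in LFD 1.97, 2.47, 1.85 and 3.10 CPM. Every HFD + Inhib library was below every LFD library, and the HFD + siRNA range enclosed all others. Mt2 fell by 2.90 in HFD + Inhib compared with HFD + siRNA (SE 0.78, adjusted p = 0.00937), a call that stood in all 15 alternatives, with adjusted p-values up to 0.0482. Against HFD the value was -1.64 (95% interval from -3.37 to 0.09, adjusted p = 0.172) and against LFD -1.72 (adjusted p = 0.0987). Both passed with the spread of the compared groups alone, at adjusted p-values of 0.0235 and 0.0044. Across the 16 libraries log2 CPM of Mt1 and Mt2 had a Pearson r of 0.917 (permutation p = 1e-05, the smallest that 100000 permutations give, adjusted p = 0.00045 over 45 pairs of members) and a Spearman rho of 0.871 (permutation p = 3e-05, adjusted p = 0.00135). Libraries were permuted across groups, so differences between groups enter these p-values. Without HFD + siRNA 1 and 3, the libraries farthest from the median, the r was 0.832. The reference transcripts of Mt1 and Mt2 share no 50-base word. No other of the 45 pairs of members passed, and the r of Hamp and Hamp2, whose reads were divided between them, was 0.252, and 0.756 without LFD 1 and HFD 2, the libraries farthest from the median of Hamp.

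**Figure D3:**
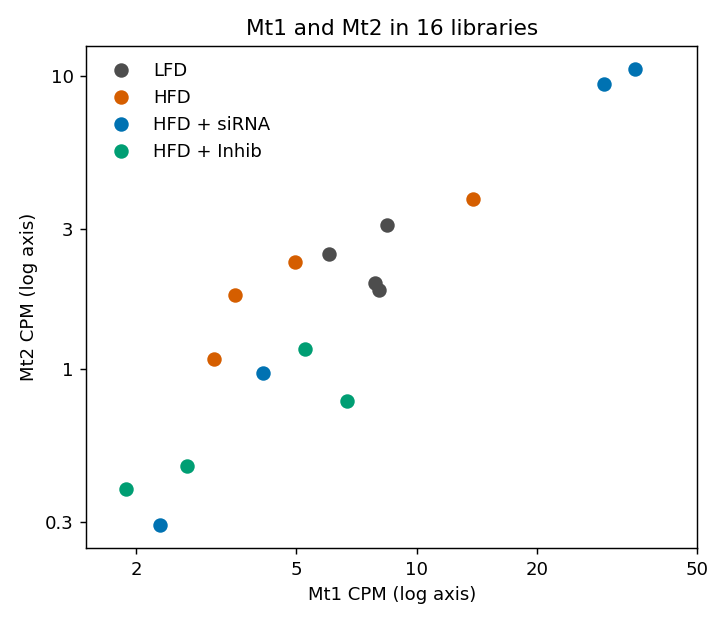
Mt2 against Mt1 in CPM (both axes log) in the 16 libraries, coloured by group. The points lie along 1 diagonal, with HFD + siRNA spread from near its low end (Mt1 2.29 CPM) to its high end (35 CPM). The lowest Mt1 is in HFD + Inhib (1.88 CPM), and LFD lies in a tight cluster.

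**Figure D4:**
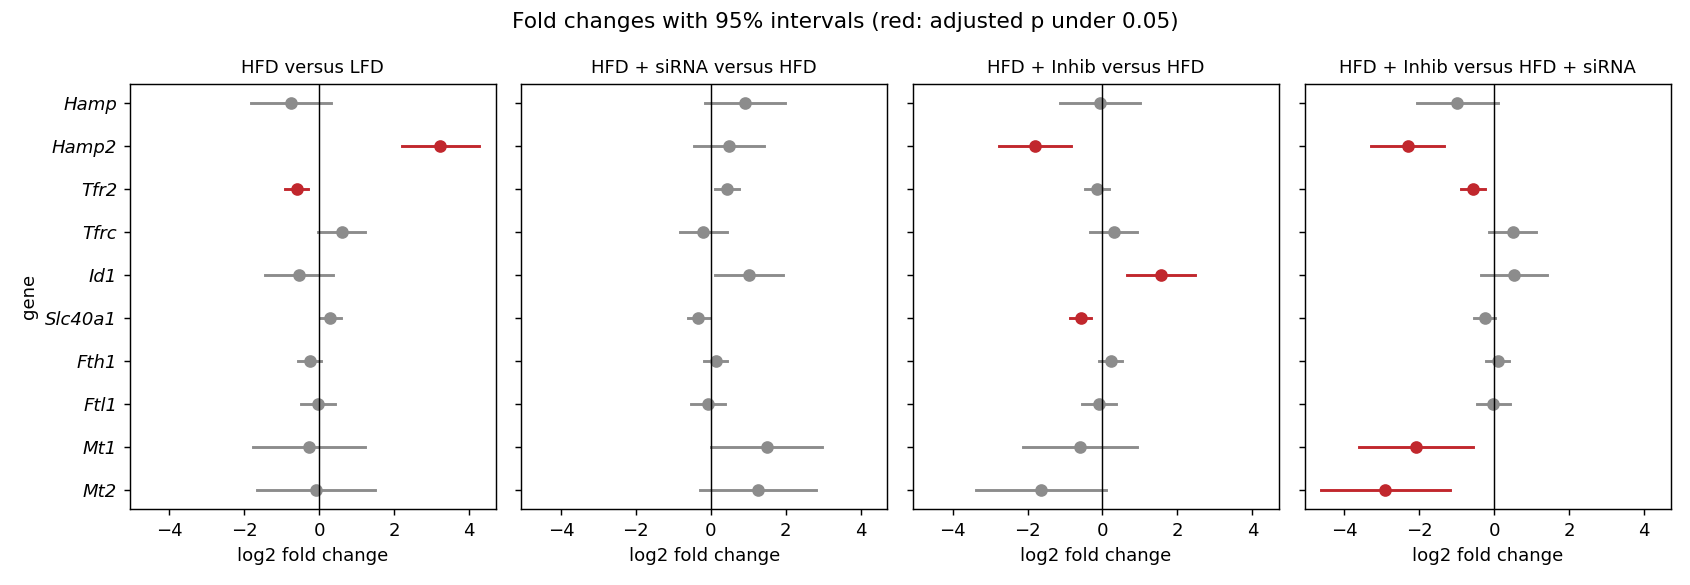
Log2 fold change of each gene with its 95% interval (horizontal axis) in 4 comparisons, 1 panel each, with genes called by edgeR in red. Hamp2 stands at 3.23 in HFD against LFD, no gene is red in HFD + siRNA against HFD, and the intervals of Fth1 and Ftl1 include 0 in all 4 panels.

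The order of levels within the liver can be compared only per kilobase of transcript. In LFD mean Ftl1 was 2124 CPM per kilobase, Fth1 948, Hamp 633, Tfr2 111, Slc40a1 37.8, Hamp2 29.5, Mt1 13.9, Id1 5.28, Mt2 4.6 and Tfrc 3.30. Without LFD 1, Hamp in LFD was at 292 CPM per kilobase, still next after Fth1, and Id1 was at 3.17, below Tfrc (3.25). Ftl1 and Fth1 led in all groups. Hamp2 rose to the fourth place in HFD (278), behind Hamp (377) and ahead of Tfr2 (72.9). In HFD + Inhib, Hamp2 (79.2) and Tfr2 (65.8) were neighbors, as were Id1 (10.6), Mt1 (7.54) and Tfrc (6.15). Among these HFD + Inhib neighbors, the SDs of Hamp2 and Tfr2 overlapped, as did those of Mt1 with Id1 and with Tfrc. Those of Id1 and Tfrc did not.

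Genes around the members were read from 8 lists. The BMP-SMAD list, from the ligands to the inhibitors of Hamp, had 20 of 20 genes tested. In HFD against LFD, 4 were higher and 3 lower, with a list median log2 fold change of -0.11 against -0.01 for all genes, of which 18.4% were called. Bmp6, the ligand that endothelial cells of the sinusoid make when iron rises, fell by 0.69 (SE 0.18, adjusted p = 0.0146), from 5.95 ± 1.56 to 3.68 ± 0.492 CPM, a call lost without LFD 1 (adjusted p = 0.0587) and with GC and length offsets (adjusted p = 0.0542). The summed markers of those endothelial cells were 464 ± 37.2 CPM in LFD and 388 ± 26.3 CPM in HFD (SD, n = 4), with Stab2 the most abundant, none at 0 and 1 of 8 lower, and their part in the Bmp6 value was not tested. Fgl1, a liver-secreted antagonist of BMP ligands, fell by 0.68 (adjusted p = 0.0182, and 0.0645 without LFD 1). Acvr2a, a BMP receptor chain, rose by 0.43 (adjusted p = 0.0106, and 0.178 with GC and length offsets).

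In HFD + siRNA against HFD, 2 genes of the BMP-SMAD list were higher and 3 lower, where 11.7% of all genes were called. Id3, a BMP target related to Id1, rose from 18.2 ± 6.88 to 40.1 ± 16.6 CPM (log2 fold change 1.14, SE 0.34, adjusted p = 0.0391), a call lost in 7 alternatives. The receptor genes Acvr2a and Bmpr1a each fell by 0.39 (adjusted p = 0.0225 and 0.0236), and with GC and length offsets they stood at -0.07 and -0.13 and were not called. In HFD + Inhib against HFD, where 18.2% of all genes were called, 0 of 20 were higher and 2 lower: the type I receptor Acvr1 (fell by 0.44, adjusted p = 0.0206) and the BMP co-receptor hemojuvelin, Hjv (fell by 0.27, adjusted p = 0.0469). Id1, itself a BMP target, rose in this comparison, in which none of the 20 was called higher. Between HFD + Inhib and HFD + siRNA, 4 were higher and 8 lower, where 33.8% of all genes were called. Id3 fell by 1.42 there (SE 0.34, adjusted p = 0.0045), where Id1 stood at 0.53 (adjusted p = 0.324). Acvr1 fell by 0.64 (adjusted p = 0.000981) and Bmpr1a rose by 0.68 (adjusted p = 0.000145). Against LFD, HFD + Inhib also held less Tmprss6, the protease that cuts hemojuvelin and so lowers Hamp (fell by 0.78, SE 0.14, adjusted p = 0.000349), and less Atoh8, a BMP target (fell by 0.76, adjusted p = 0.0444, not called with GC and length offsets). Id3 fell by 1.27 in that comparison (adjusted p = 0.00848), in which 3 genes of the list were higher and 6 lower and 36.9% of all genes were called. In HFD + siRNA against LFD, where 8.63% of all genes were called, 2 were higher and 2 lower: Hjv rose by 0.62 (adjusted p = 0.000688), and Smad4 and Smad1, which carry the BMP signal to the nucleus, fell by 0.37 (adjusted p = 0.00127) and 0.40 (adjusted p = 0.042).

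Of the 9 genes in the arm of interleukin 6 and STAT3, 8 were tested, Il6 itself being too low (at most 3 reads in a library). In HFD + Inhib against HFD 2 were lower, 1 was higher and 5 were not called, where 18.2% of all genes were called. Against HFD + siRNA 2 of 8 were lower and 0 higher, where 33.8% of all genes were called. Il6ra, the receptor for interleukin 6, held 18.8, 10.3, 18.5 and 15.8 CPM in HFD + Inhib against 38.2, 29.1, 34.2 and 51.6 CPM in HFD, with no overlap. It fell by 1.27 (SE 0.18, adjusted p = 0.000142), and by 1.29 compared with HFD + siRNA (adjusted p = 6.91e-05). Stat3 fell by 0.46 (SE 0.09, adjusted p = 0.0027) from HFD and by 0.71 from HFD + siRNA (adjusted p = 3.79e-05). It also fell by 0.43 in HFD against LFD (adjusted p = 0.00608). The only gene of the list that rose in HFD + Inhib against HFD was Creb3l3, a liver factor of the acute phase (0.36, with an adjusted p that rounds to 0.05), a call lost in 10 alternatives. In HFD + siRNA against HFD, 0 of 8 genes were called by edgeR, where 11.7% of all genes were.

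Acute phase genes, the secreted proteins that inflammation raises in liver, were the list with the largest share of called genes in HFD + Inhib against HFD, among the 8 lists. There, 7 of 17 were lower and 1 higher, with a list median of -0.44 on the log2 scale against 0.00 for all genes, of which 18.2% were called. Against HFD + siRNA, 11 were lower and 1 higher, where 33.8% of all genes were called. Saa1, serum amyloid A, held 6.79 ± 1.37 CPM in HFD + Inhib, 22.7 ± 6.32 in HFD and 27.4 ± 15.4 in HFD + siRNA, and fell by 2.02 compared with HFD + siRNA (SE 0.49, adjusted p = 0.00501). Saa2 fell by 1.86 compared with HFD (SE 0.52, adjusted p = 0.0206), a call lost when any of 4 libraries was left out in turn. Lcn2, lipocalin 2, which captures bacterial iron carriers and stands in 3 of the lists, held 7.85, 12.3, 4.44 and 5.51 CPM in HFD and 0.989, 2.88, 1.0 and 2.40 CPM in HFD + Inhib. It rose by 1.99 in HFD against LFD (SE 0.41, adjusted p = 0.00416) and fell by 2.06 in HFD + Inhib against HFD (SE 0.41, adjusted p = 0.00225), while HFD + siRNA stayed high (8.09 ± 3.80 CPM, and 2.09 above LFD with an adjusted p of 0.00487). The gene that rose was Il1rn, the interleukin 1 receptor antagonist, from 3.49 ± 0.726 CPM in HFD to 20.6 ± 8.63 CPM in HFD + Inhib (log2 fold change 2.57, SE 0.34, adjusted p = 5.89e-05). In HFD + siRNA against HFD, 1 of 17 genes was called, where 11.7% of all genes were. It was Itih3, which rose by 0.52 (adjusted p = 0.0228). Orm1, an orosomucoid, a plasma carrier protein, fell against LFD by 0.75 in HFD (SE 0.13, adjusted p = 0.00119) and by 0.74 in HFD + siRNA (adjusted p = 0.00178). In HFD + Inhib its log2 fold change against LFD was -1.18 (adjusted p = 3.91e-06).

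Of 22 genes on the list of iron uptake, transport and export 20 were tested, and in HFD + Inhib against HFD 1 was higher, 4 were lower and 15 were not called, where 18.2% of all genes were called. Trf, transferrin, the iron carrier of plasma, held 6522, 6885, 4838 and 5664 CPM in HFD + Inhib, below all libraries of the other groups, of which the lowest was at 9517 CPM. It fell by 0.84 compared with HFD (SE 0.16, adjusted p = 0.00142) and by 1.10 compared with LFD (adjusted p = 7.71e-05). Steap4, a ferrireductase, fell by 0.66 (adjusted p = 0.0144). Compared with HFD + siRNA, where 33.8% of all genes were called, 2 genes were higher and 10 lower in HFD + Inhib, among them Hpx, hemopexin, which binds heme in plasma (fell by 1.0, adjusted p = 0.00245), and Cd163, the macrophage receptor for hemoglobin (fell by 1.05, adjusted p = 0.0185). Of the 10 Kupffer cell and macrophage markers 6 were also lower in that comparison, and their part in the value of Cd163 was not tested. The summed hepatocyte markers, given above, were also lowest in HFD + Inhib, in every library. Of those 8 markers 2 were lower than in HFD and 6 were not called. The lower ones were Alb, the most abundant (log2 fold change -0.77), and Ttr, transthyretin (-0.93). Compared with HFD + siRNA 4 of the 8 were lower and 1 was higher, Cyp2e1, a cytochrome P450 (0.91, adjusted p = 0.00389). The part of that difference in the lower level of Trf, Hpx, Hamp2 and the acute phase genes was not tested.

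In HFD + siRNA against HFD, 2 of the 20 iron transport genes were higher and 2 lower, where 11.7% of all genes were called. Slc46a1, a folate and heme transporter, rose by 0.43 (adjusted p = 0.0345), Lrp1, the receptor for heme bound to hemopexin, rose by 0.39 (adjusted p = 0.0375), and Slc25a37, mitoferrin 1, fell by 0.45 (adjusted p = 0.00365). The first of these was not called with the replicate number as a block (adjusted p = 0.051). In HFD against LFD, 1 gene was higher (Lcn2, above) and 4 lower, where 18.4% of all genes were called. Slc11a2, the importer DMT1, fell by 0.47 (adjusted p = 0.0257) and the reductase gene Steap2 by 0.61 (adjusted p = 0.0382).

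Of 10 listed genes that sense and store iron beside ferritin 9 were tested, and most were not called. In HFD against LFD 1 was higher and 1 lower (18.4% of all genes called), in HFD + siRNA against HFD 2 were higher and 1 lower (11.7%), and in HFD + Inhib against HFD 2 were higher and 0 lower (18.2%). Aco1, which encodes iron regulatory protein 1, held 207 ± 8.44 CPM in HFD, below 243 ± 7.96 in LFD, 269 ± 6.72 in HFD + siRNA and 243 ± 19.7 in HFD + Inhib. It fell by 0.23 in HFD against LFD (SE 0.07, adjusted p = 0.0369), and rose by 0.38 in HFD + siRNA (adjusted p = 0.00417) and by 0.23 in HFD + Inhib (adjusted p = 0.0356) against HFD. The changes of 0.23 were lost in 11 and 8 alternatives. Ireb2, which encodes iron regulatory protein 2, held 180.4, 171, 161 and 189 CPM in HFD + Inhib, above every other library. It rose by 0.49 against HFD (SE 0.14, adjusted p = 0.0229) and by 0.83 against HFD + siRNA (adjusted p = 0.00034). Fbxl5, the iron-sensing part of the ligase that removes iron regulatory proteins, rose by 0.38 in HFD against LFD (adjusted p = 0.0159) and fell by 0.35 in HFD + siRNA against HFD (adjusted p = 0.0324), but with GC and length offsets these were 0.15 and -0.13 and were not called. Pcbp2, an iron chaperone, rose by 0.30 in HFD + siRNA (adjusted p = 0.0473), a call lost in 11 alternatives. Ncoa4, which carries ferritin to its breakdown, rose by 0.27 in HFD + Inhib against HFD + siRNA (adjusted p = 0.016), and with GC and length offsets it was at 0.11 and not called.

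All 13 listed heme genes were tested. In HFD against LFD 1 was higher and 2 lower (18.4% of all genes called), in HFD + siRNA against HFD 2 were higher and 0 lower (11.7%), in HFD + Inhib against HFD 2 were higher and 1 lower (18.2%), and in HFD + Inhib against HFD + siRNA 2 were higher and 5 lower (33.8%). Cpox, coproporphyrinogen oxidase, a late step of heme synthesis, rose by 0.63 in HFD against LFD (SE 0.12, adjusted p = 0.00251) and by another 0.53 in HFD + Inhib against HFD (SE 0.12, adjusted p = 0.00541), from 116 ± 22.1 CPM in LFD through 179.9 ± 12.5 in HFD to 259 ± 18.4 in HFD + Inhib. Ppox, the next enzyme, fell by 0.41 in HFD + Inhib against HFD (adjusted p = 0.0101), and Blvrb, biliverdin reductase B, rose by 0.35 (adjusted p = 0.0179). Blvrb had fallen by 0.48 in HFD against LFD (adjusted p = 0.00403), and HFD + Inhib against LFD stood at -0.12 (adjusted p = 0.339). Hmox2, a heme oxygenase, also fell in HFD against LFD (by 0.46, adjusted p = 0.0115). Uros, a heme synthesis enzyme, rose by 0.32 in HFD + siRNA against LFD (adjusted p = 0.0314), a call lost in 10 alternatives. In HFD + siRNA against HFD, Alad, an early enzyme of heme synthesis, rose by 0.48 (SE 0.12, adjusted p = 0.0187), a call lost without HFD 3 or 4 and without HFD + siRNA 3 or 4 (adjusted p from 0.0587 to 0.0733). Erythroid markers, which share Alas2 with this list, summed to 582 ± 143 CPM in HFD, 610.1 ± 219 under the siRNA, 527 ± 135 under the inhibitor and 769 ± 358 in LFD, with Hbb-bs the most abundant.

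Among zinc genes, the transporter Slc39a5 changed most. It encodes a zinc importer of intestine, pancreas and liver. Its libraries held 0.880, 0.358, 0.299 and 0.396 CPM in LFD, and 3.51, 2.95, 2.58 and 2.81 CPM in HFD. In HFD + siRNA they held 1.55, 1.13, 0.872 and 1.93 CPM, and in HFD + Inhib 20.5, 14.8, 14.5 and 20.9 CPM. HFD and HFD + Inhib each stood apart from all other groups. Slc39a5 rose by 2.66 on the log2 scale in HFD against LFD (SE 0.30, adjusted p = 6.09e-05), fell by 1.10 in HFD + siRNA against HFD (SE 0.26, adjusted p = 0.0129), and rose by 2.57 in HFD + Inhib against HFD (SE 0.24, adjusted p = 2.7e-06). The direct difference between HFD + Inhib and HFD + siRNA was 3.67 (SE 0.26, adjusted p = 1e-07), where Mt1 and Mt2 were on the lower side in HFD + Inhib. Pancreatic enzyme markers, from a tissue known to express Slc39a5, summed to at most 6.51 CPM in any library (LFD 3) and to 0.484 ± 0.763 CPM in HFD + Inhib and 0.0975 ± 0.0921 CPM in HFD.

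Of the 25 genes on the zinc list 19 were tested, and Mt3 and Mt4, the other metallothioneins, had no reads in any library. In HFD + Inhib against HFD, where 18.2% of all genes were called, 2 were higher and 3 lower, among them Slc30a10, a manganese exporter (fell by 0.99, SE 0.25, adjusted p = 0.0106). Slc39a4, a zinc importer, fell by 0.94 in HFD against LFD (SE 0.21, adjusted p = 0.00627) and rose by 0.76 in HFD + siRNA against HFD (adjusted p = 0.0251), a call lost in 7 alternatives. Slc39a11 rose by 0.57 in HFD + siRNA (SE 0.12, adjusted p = 0.00739). Slc39a13, another zinc transporter, fell by 0.67 in HFD against LFD (adjusted p = 0.00903, and 0.0871 with GC and length offsets). Slc39a3 fell by 0.55 in HFD + Inhib against HFD (adjusted p = 0.0399), a call lost in 6 alternatives, and by 0.83 against HFD + siRNA (adjusted p = 0.00202). Glucocorticoid-induced genes, listed because that hormone also raises Mt1 and Mt2, had 0 of 11 called by edgeR in HFD + siRNA against HFD (11.7% of all genes called). In HFD + Inhib against HFD, 2 of 11 were lower, a share equal to the 18.2% of all genes called: Lcn2 (above) and Tsc22d3, a leucine zipper factor that glucocorticoids induce (fell by 0.87, SE 0.24, adjusted p = 0.0177). In HFD against LFD Fkbp5, another such gene, rose by 0.89 (adjusted p = 0.00299).

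**Figure D5:**
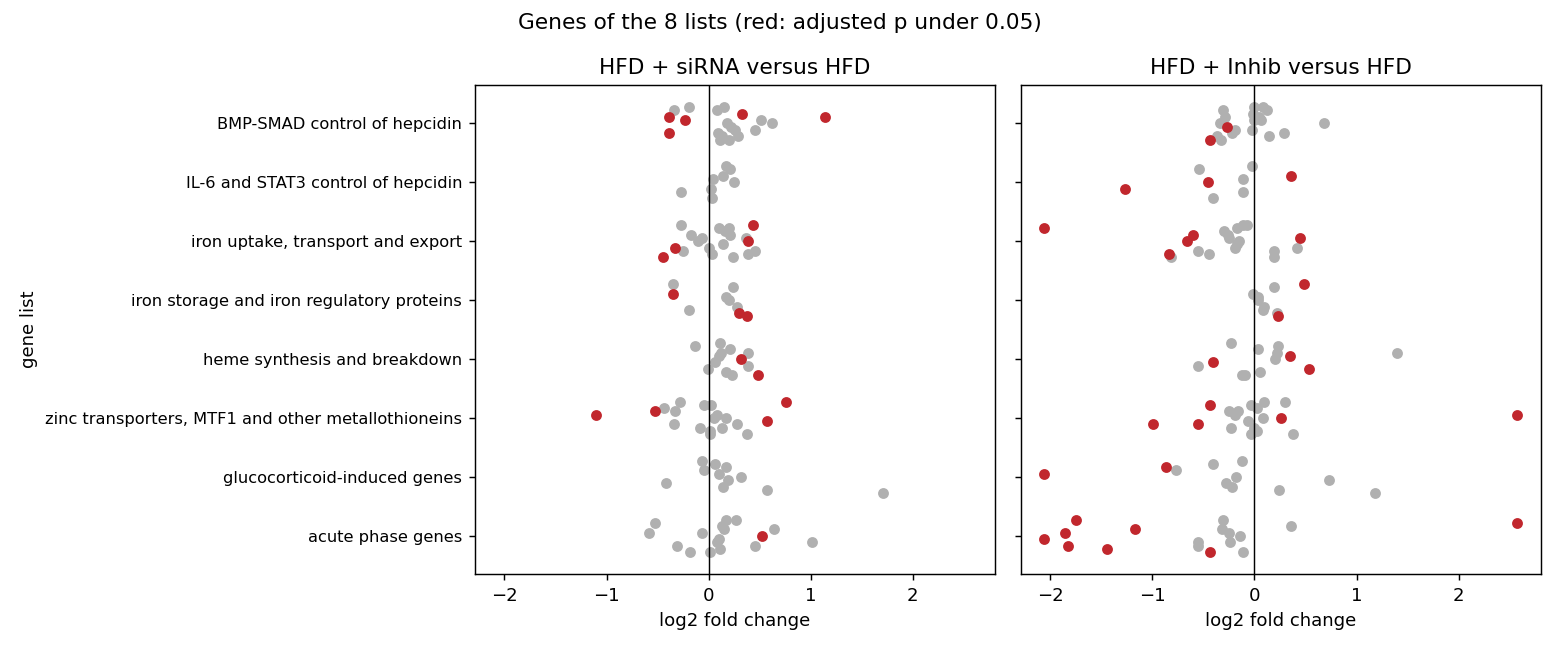
Log2 fold change (horizontal axis) of every tested gene of the 8 lists in HFD + siRNA against HFD (left) and HFD + Inhib against HFD (right), 1 point per gene, with genes called by edgeR in red. In HFD + Inhib the acute phase row holds 7 red points below 0 and 1 above (Il1rn, 2.57), and the rightmost zinc point is Slc39a5 (2.57).

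The genes most like Hamp and Mt1 across libraries were read from 8698 well-expressed genes by the Pearson r of log2 CPM over the 16 libraries, which share library depth and groups, as a description with no test. Nearest to Hamp were Alyref (r = 0.814), Gm5424 (0.766), Polr1a (0.746), Scp2-ps2 (0.738) and Sec14l4 (0.735). Without LFD 1, the library highest in Hamp, 4 of these values were lower (from 0.572 for Polr1a to 0.672 for Alyref) and that of Scp2-ps2 was 0.759. Nearest to Mt1 were Sorbs3 (0.884), Zfp526 (0.83), Slc38a3 (0.802), Cmtm8 (0.801) and Zfand3 (0.787), and Mt2 itself was below the level needed to enter. Sorbs3, a focal adhesion adaptor, held 45.6, 20.9, 35.7 and 20.5 CPM in HFD + siRNA, high in the same replicates 1 and 3 as Mt1. Slc38a3, a glutamine transporter of liver, held 1359.8, 850.4, 1327 and 829.6 CPM there, again high in replicates 1 and 3. Without those libraries the 5 values ran from 0.541 for Zfand3 to 0.795 for Sorbs3.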

How the data were processed

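Total liver RNA of 16 male C57BL/6J mice in 4 diet and treatment groups was sequenced as 1 library per mouse. The authors deposited 1 table of expected counts, which are estimated read counts per gene symbol that need not be whole. Tools named in the submitters' processing notes are STAR and RSEM, with genome build mm39, and their versions and the gene annotation are not given in the sources used here. The study's methods name HTG EdgeSeq sequencing, which differs from those notes, and the values were used as the table gives them. Reads that fit more than 1 gene are divided between them by RSEM, which bears on Hamp, Hamp2 and Ftl1. Across the deposited estimated counts, 15.1% of values were not whole, and library totals ran from 24317111 to 35820234.

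These values were rounded, and edgeR's filterByExpr selected genes (minimum count 10, minimum total 15), leaving 18335 of 50559 symbols. Libraries were scaled by TMM, and 1 quasi-likelihood model (edgeR 4.0.16, R 4.3.3) was fitted to the 4 groups, so they share an estimate of the spread. Adjusted p-values are Benjamini-Hochberg over all tested genes, and a gene was called at an adjusted p under 0.05. CPM, the counts relative to library size, used TMM-scaled totals. Intervals cover 95%. No label says that same-numbered mice belong together. Samples are separate mice by their labels, and p-values measure the spread between them.

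The members and the gene lists were chosen with earlier results of these data known. Named genes were drawn from the 10 members, Khk, and from each list and comparison the 3 genes with the largest absolute log2 fold change among called genes whose average log2 CPM was 1 or more, with not every such gene described in every comparison. A result that this rule would name in the heme list is not reported here. Alternatives tried were RLE size factors, no filter, at least 10 counts in every library, only the compared groups, the replicate number as a block, offsets for GC content and transcript length, both together, DESeq2 1.42.0, sums over near-identical copies, and each replicate left out. Promoter windows are from RefSeq (GRCm38.p6), and transcripts are from GENCODE M21 on GRCm38. They were read with Biopython 1.88. No position is carried between builds.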

Additional observations from a re-analysis of the deposited data

Results flagged for a closer look

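Hamp in LFD 1 lay apart from the other libraries of its group, at 679 CPM against 92.7 to 157 CPM in the other 3. Its gap to the nearest library was 0.891 of the range of the group, above Dixon's 95% critical value for 4 libraries. The same library held the highest Id1 of LFD, 10.9 CPM. Hamp in HFD 2 lay apart at 72.2 CPM against 181 to 184 CPM in the other 3, with a gap of 0.967 of the range. HFD 2 also held the highest Tfrc of the 16 libraries, 43.8 CPM, and the lowest Hamp2 of HFD, 39.3 CPM. Chance gives about 1 such library in 20 groups, and 2 were found in 44 groups, counting the 10 members and Khk in the 4 groups. Whether these mice received saline or insulin before collection is not in the labels, and its part in these values was not tested.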

How the results depend on the processing

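The number of members called in HFD + siRNA against HFD was the most dependent count. It was 0 by the main edgeR test, 1 with DESeq2, 1 with GC and length offsets and the replicate block, and 4 with only the compared groups (Hamp, Tfr2, Slc40a1 and Id1). Of all genes, 11.7%, 14.9%, 10.3% and 15% were called in the same order. With only the compared groups, 808 genes of all were called in HFD + siRNA against LFD, instead of 1582. Leaving out 1 replicate at a time, members called ranged from 2 to 2 in HFD against LFD, 0 to 1 in HFD + siRNA against HFD (1 without HFD + siRNA 2), 3 to 4 in HFD + Inhib against HFD, 3 to 4 in HFD + Inhib against HFD + siRNA, 1 to 3 in HFD + siRNA against LFD (3 without LFD 1) and 2 to 4 in HFD + Inhib against LFD. All genes called ranged, in the same order, from 2001 to 3691, 1100 to 1981, 2532 to 3050, 4934 to 6251, 965 to 1456 and 5477 to 6830.

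Some signs turned, none of them of a called member. With GC and length offsets, Ftl1 stood at 0.27 in HFD against LFD, 0.25 in HFD + Inhib against HFD + siRNA and 0.18 in HFD + Inhib against LFD, Mt2 at 0.41 and Khk at 0.20 in HFD against LFD, and Tfrc at 0.10 and Hamp2 at -0.03 in HFD + siRNA against HFD. Pcbp1, outside the members, was called at -0.25 in HFD + Inhib against LFD and turned to 0.04. With these offsets and the replicate block together, the values were 0.29, 0.24 and 0.18 for Ftl1, 0.26 for Mt2, 0.21 for Khk, 0.18 for Tfrc and 0.04 for Pcbp1, and Hamp in HFD against LFD was at 0.10. With at least 10 counts in every library Khk was at 0.01 in HFD against LFD. Leaving out replicates, HFD against LFD ranged from -1.03 to 0.38 for Hamp, -0.14 to 0.19 for Ftl1, -0.79 to 0.19 for Id1, -0.45 to 0.16 for Mt2 and -0.12 to 0.15 for Khk. Tfrc in HFD + siRNA against HFD ranged from -0.42 to 0.26. HFD + Inhib against HFD ranged from -0.30 to 0.08 for Hamp, -0.31 to 0.06 for Ftl1 and -0.93 to 0.09 for Mt1, and HFD + Inhib against HFD + siRNA from -0.22 to 0.13 for Ftl1. Against LFD, HFD + siRNA ranged from -0.12 to 1.28 for Hamp, -0.12 to 0.04 for Slc40a1 and -0.23 to 0.10 for Ftl1, and HFD + Inhib from -1.10 to 0.31 for Hamp, -0.15 to 0.05 for Fth1 and -0.34 to 0.09 for Ftl1.

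The labels give the replicate numbers no further meaning. Of 24 pairs of same-numbered libraries, 12 had correlated deviations over 0.1 (from -0.345 to 0.482). Among the other groups, 5 of 16 libraries correlated best with their own number. Whether same-numbered libraries share a batch was not tested. With the replicate block, 5 members were called in HFD + Inhib against LFD instead of 3, where 36.4% of all genes were called with the block and 36.9% without. Fold changes followed GC content across 8342 genes in most comparisons (Spearman rho from -0.547 to 0.49), and offsets for GC and length could be fitted for 15858 genes (86.5% of those tested), among them the 10 members. Replicates differed by more than sampling noise in all 24 pairs within groups, with a chi-square per gene of at least 20.6. Mt2 and Id1 had few reads in some libraries, which limits their precision.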
